A study of Mus musculus with 6 samples.

Results

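Carboxypeptidase M (Cpm) and 8 other genes for peptidases of the intestinal brush border or closely related to them, Ace, Dpp4, Anpep, Enpep, Mme, Mep1a, Mep1b and Naaladl1, were followed in colorectal tissue of mice with colitis. The 9 genes were found by symbol among the 18268 genes of the expression table, and all 9 were present. The members were chosen by a rule that drew on their measured FPKM in these mice, with the difference between the treatment groups already known, so that difference is given for them as a description and no test is read for any of them. Of the 9, 8 had at least 1 FPKM (fragments counted per unit of transcript length and of sequencing depth) in at least 3 of the 6 mice, which was the filter for the 12072 genes tested. Mme did not reach it.

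The study compared berberine (BBR), a plant alkaloid, with sulfasalazine (SASP), an aminosalicylate prodrug given for ulcerative colitis. All 6 mice were C57BL/6, described as adult males in the methods, and drank dextran sulfate sodium (DSS), which damages the colonic epithelium, for 7 days. Colitis mice receiving BBR (3 mice) and colitis mice receiving SASP (3 mice) had the drug by gavage for 6 days. The labels do not say how the drug days fell against the DSS days, and the methods describe a course during DSS and a course after it. No untreated colitis mice and no healthy mice were analysed here, so every difference is between 2 treated groups, and neither drug can be set against DSS alone.

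The brush border is the carpet of microvilli on the luminal face of enterocytes. Peptidases anchored there with their active sites facing outwards trim dietary peptides to amino acids, dipeptides and tripeptides that transporters can take up, and they also cut peptide hormones and inflammatory mediators. Several of the same enzymes sit on endothelium, fibroblasts or leukocytes, so a level in whole tissue is not a level in enterocytes. Each enzyme has its own cut: Cpm takes a single arginine or lysine from the carboxyl end, Ace takes dipeptides from the carboxyl end, Dpp4 takes dipeptides from the amino end, Anpep and Enpep take single residues from the amino end, and Mme and the meprins cut inside the chain.

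The stretch upstream of the transcription start is shown for Cpm, the member with the largest log2 fold change. It is also shown for Mep1a and Dpp4, whose log2 fold changes had opposite signs. Each line gives 250 bases that end at the base before the annotated start, written 5′ to 3′ on the strand of the gene, with CG dinucleotides in capitals. The sequences are from RefSeq, build GRCm38.p6, which is not the build named in the submitters' processing notes (mm9).
Cpm, chr10:117629250-117629499, plus strand: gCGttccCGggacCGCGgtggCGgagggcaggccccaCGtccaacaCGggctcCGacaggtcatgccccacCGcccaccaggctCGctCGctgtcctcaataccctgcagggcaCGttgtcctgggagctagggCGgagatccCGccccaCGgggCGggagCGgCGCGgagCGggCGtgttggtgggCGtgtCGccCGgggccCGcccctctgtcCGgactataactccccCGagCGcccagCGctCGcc
Mep1a, chr17:43502774-43503023, minus strand: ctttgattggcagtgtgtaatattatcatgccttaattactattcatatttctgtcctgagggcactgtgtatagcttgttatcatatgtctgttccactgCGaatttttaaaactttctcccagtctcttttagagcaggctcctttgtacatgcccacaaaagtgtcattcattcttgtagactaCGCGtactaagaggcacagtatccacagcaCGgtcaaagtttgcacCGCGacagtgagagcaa
Dpp4, chr2:62412232-62412481, minus strand: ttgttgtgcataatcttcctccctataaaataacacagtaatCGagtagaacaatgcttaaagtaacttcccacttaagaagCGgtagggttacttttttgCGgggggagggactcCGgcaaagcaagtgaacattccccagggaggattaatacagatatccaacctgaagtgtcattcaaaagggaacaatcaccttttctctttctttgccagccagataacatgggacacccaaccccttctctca
The upstream stretch of Cpm was 74.4% G or C and held 30 CG dinucleotides, more than 94.1% of the 32851 promoters in the table. That of Mep1a was 41.6% G or C with 6 CG dinucleotides, and that of Dpp4 was 43.6% with 4, against medians of 52.4% and 6 over all promoters. Letters matching binding motifs of enterocyte factors were searched on both strands of the 7 members with an entry, which leaves out Mep1b and Naaladl1. The CDX letters TTTATNG, present in 9.81% of all promoters, and the GATA letters AGATAA, present in 9.99%, were found upstream of Dpp4 and of no other member. HNF4 letters (CAAAGTCCA, 0.384% of promoters) were found upstream of none. These matches describe letters in a short window and say nothing of whether a factor bound there.

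The tissue carried the genes of its label. The 10 epithelial marker genes summed to between 8153 and 8752 FPKM in the BBR mice and between 8056 and 9105 FPKM in the SASP mice, and the 4 posterior Hox genes with values (Hoxa13, Hoxb13, Hoxd12 and Hoxd13) summed to between 202 and 395 against between 236 and 286 FPKM. Genes at 1 FPKM or more numbered between 11518 and 12307 per mouse. Of the 12072 tested genes, 1069 (8.86%) differed between the groups at a limma adjusted p under 0.05, with 461 higher and 608 lower under BBR, or 3.82% and 5.04% of those tested, and the median over all 12072 log2 fold changes was 0.10. BBR mouse 3 stood apart from the other 2 BBR mice: without it 4018 of 11878 genes (33.8%) passed the same threshold, so values for the peptidase genes are given with and without this mouse where it changes them.

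Cpm, the carboxypeptidase whose known substrates include kinins and complement anaphylatoxins, was the member with the widest gap between groups. Its level was 29.62, 35.56 and 34.85 FPKM in the 3 BBR mice and 6.27, 5.93 and 3.96 FPKM in the 3 SASP mice. Every BBR mouse was therefore above every SASP mouse, as was the case in 21.3% of tested genes. The group means were 33.3 ± 3.24 FPKM (SD, n = 3) and 5.39 ± 1.25 FPKM (SD, n = 3), a ratio of 6.19. The log2 fold change, on the scale of log2(FPKM + 1), was 2.44 with a standard error of 0.17. This was rank 5 among the 12072 tested genes when ordered by signed value, from the largest rise to the largest fall. The rank comes from the contrast that chose Cpm. Cpm was the only one of the 8 tested members past the threshold that 8.86% of all tested genes passed, and nothing is read from that count because this contrast chose the member. With each mouse left out in turn the log2 fold change lay between 2.27 and 2.55.

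**Figure D1:**
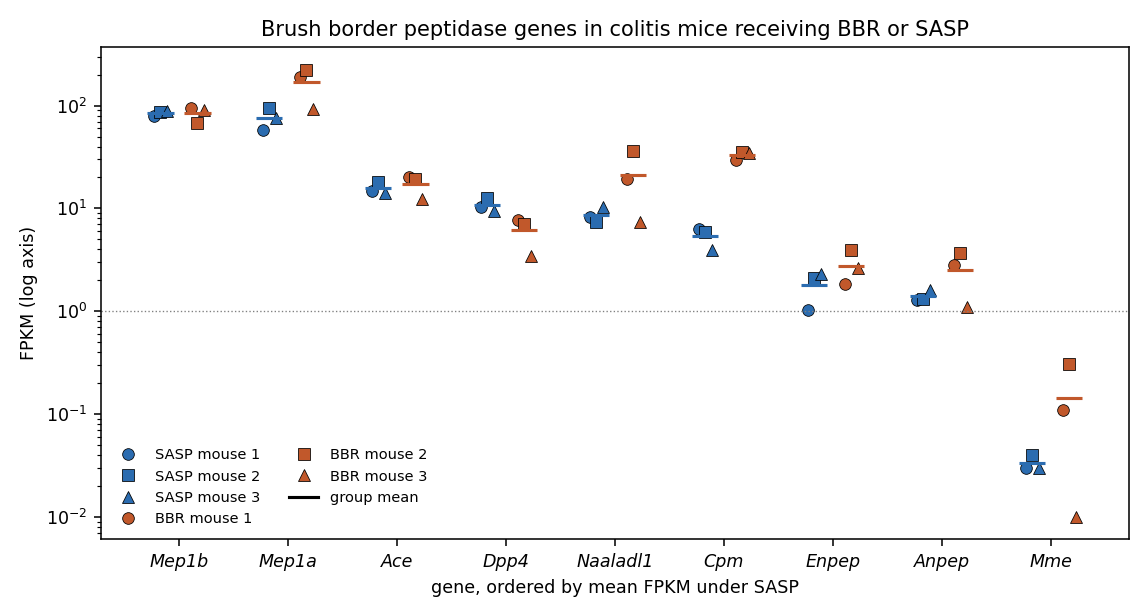
Level of each peptidase gene in FPKM (log axis) in each of 3 SASP mice and 3 BBR mice, with bars at the group means and a dotted line at 1 FPKM. Cpm is the gene with the widest gap between groups, 29.62 to 35.56 FPKM under BBR and 3.96 to 6.27 FPKM under SASP. BBR mouse 3 (triangle) lies low among the BBR mice for Mep1a, Naaladl1, Anpep and Dpp4.

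The meprins gave most of the summed signal of the 9 genes. Mep1a encodes the alpha subunit, which can be shed into the lumen, and Mep1b the membrane-anchored beta subunit. Both are astacin-type metalloproteases, which cut mucins and extracellular matrix proteins as well as peptides. Mep1a was at 188.45, 223.34 and 93.46 FPKM in the BBR mice and at 57.36, 94.22 and 76.22 FPKM in the SASP mice. BBR mice 1 and 2 were above all SASP mice, and BBR mouse 3 was just under SASP mouse 2, so the groups overlapped. The means were 168 ± 67.2 and 75.9 ± 18.4 FPKM (SD, n = 3 each), a ratio of 2.22. The log2 fold change was 1.08 with a standard error of 0.34, and 1.45 with a standard error of 0.21 when BBR mouse 3 was left out.

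Mep1b did not share this spread. It was at 95.06, 68.44 and 91.01 FPKM under BBR and at 80.02, 87.06 and 89.09 FPKM under SASP, and its log2 fold change was -0.02 with a standard error of 0.14. The ratio of Mep1a to Mep1b in the same mouse was 1.98, 3.26 and 1.03 under BBR and 0.717, 1.08 and 0.856 under SASP. The highest SASP ratio was thus above the lowest BBR ratio, that of mouse 3. Together the 2 meprin genes made up 73.3% to 77.6% of the summed FPKM of the 9 genes in BBR mice and 76.6% to 79.8% in SASP mice. Cpm made up 8.11% to 14.1% under BBR and 1.91% to 3.50% under SASP.

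Naaladl1, an M28-family peptidase first described in the ileum, had the largest coefficient of variation under BBR among the 8 tested members, 69.2%. Its level was 19.43, 36.34 and 7.36 FPKM in the BBR mice and 8.30, 7.39 and 10.26 FPKM in the SASP mice. The mouse with the highest and the mouse with the lowest value were both in the BBR group. The means were 21.0 ± 14.6 and 8.65 ± 1.47 FPKM (SD, n = 3 each), and the log2 fold change of 0.95 had a standard error of 0.49. It was 1.53 when BBR mouse 3 was left out and 0.45 when BBR mouse 2 was left out.

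Dpp4 (CD26), the serine peptidase that inactivates incretin hormones, went the other way. Its level was 7.72, 7.12 and 3.48 FPKM in the BBR mice and 10.26, 12.72 and 9.45 FPKM in the SASP mice. All BBR mice were below all SASP mice, as was the case in 16.6% of tested genes. The means were 6.11 ± 2.29 and 10.8 ± 1.70 FPKM (SD, n = 3 each), and the log2 fold change was -0.78 with a standard error of 0.27. It was -0.48 without BBR mouse 3. Dpp4 and Cpm were the 2 tested members whose groups did not overlap, in opposite directions, and over all tested genes the groups did not overlap in 37.9%.

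The aminopeptidases were expressed at a few FPKM. Anpep (aminopeptidase N, CD13), a general aminopeptidase, was at 2.80, 3.67 and 1.11 FPKM under BBR and at 1.29, 1.33 and 1.61 FPKM under SASP. Enpep (aminopeptidase A), which cuts acidic residues and converts angiotensin II, was at 1.83, 3.91 and 2.62 FPKM under BBR and at 1.03, 2.10 and 2.33 FPKM under SASP. In both genes the groups overlapped, with log2 fold changes of 0.48 (standard error 0.29) for Anpep and 0.42 (standard error 0.27) for Enpep. Without BBR mouse 3 these were 0.81 and 0.44. At these levels the added pseudocount of 1 FPKM makes the log2 fold change smaller than that of the FPKM themselves.

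The 2 peptidases best known from vasoactive peptides did not separate the groups. Ace, which makes angiotensin II and degrades bradykinin, was at 20.33, 19.36 and 12.41 FPKM under BBR and at 14.78, 18.02 and 14.25 FPKM under SASP. Its log2 fold change was 0.12 with a standard error of 0.20, and it was 0.33 without BBR mouse 3 and -0.01 without BBR mouse 1. Mme (neprilysin), which degrades tachykinins, natriuretic peptides and enkephalins, was listed at 0.11, 0.31 and 0.01 FPKM under BBR and at 0.03, 0.04 and 0.03 FPKM under SASP. By a rough estimate of sequencing depth these correspond to 1.33 to 41.1 reads per mouse, so no difference is stated for Mme. The same estimate gave 339 to 3045 reads per mouse for Cpm.

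**Figure D2:**
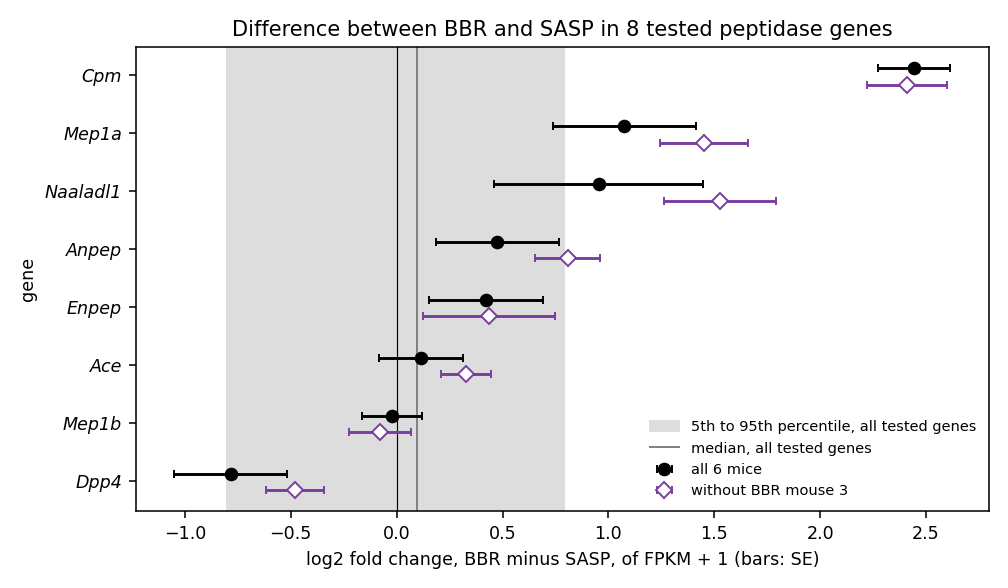
Difference between BBR and SASP for the 8 tested peptidase genes as log2 fold change of FPKM + 1, with bars for the standard error, from all 6 mice (black) and without BBR mouse 3 (open diamonds), over the 5th to 95th percentile of all tested genes (grey, -0.80 to 0.79). Cpm at 2.44 lies far outside the grey band in both fits, Mep1a and Naaladl1 move further from 0 without BBR mouse 3, and Dpp4 at -0.78 is on the edge of the band.

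Since FPKM are scaled by transcript length, the levels of the 9 genes can be ordered within a group. Under SASP the order of mean FPKM was Mep1b, Mep1a, Ace, Dpp4, Naaladl1, Cpm, Enpep, Anpep and Mme. The mice of neighbouring genes overlapped for Mep1b and Mep1a, for Dpp4 and Naaladl1, and for Enpep and Anpep, and did not for the other neighbours. Under BBR the order was Mep1a, Mep1b, Cpm, Naaladl1, Ace, Dpp4, Enpep, Anpep and Mme. There the gaps between Mep1b and Cpm, between Ace and Dpp4, and between Anpep and Mme were the ones without overlap. Cpm thus held rank 6 of 9 under SASP and rank 3 of 9 under BBR, the widest shift of any member. Relative to Mep1b in the same mouse, Cpm was 0.312, 0.520 and 0.383 under BBR and 0.0784, 0.0681 and 0.0444 under SASP.

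BBR mouse 3 was low for several members, but not for all. In this mouse Ace, Dpp4, Anpep, Mme and Naaladl1 were lower than in any of the other 5 mice. Against the mean of BBR mice 1 and 2, its level was 0.264 times for Naaladl1, 0.343 times for Anpep, 0.454 times for Mep1a, 0.469 times for Dpp4 and 0.625 times for Ace. It was 1.07 times for Cpm, 1.11 times for Mep1b and 0.913 times for Enpep. On the log2(FPKM + 1) scale, 5 members were lower in mouse 3 by more than 0.5, as were 20.2% of the 12072 tested genes. In the same mouse the 6 smooth muscle marker genes summed to 6490 FPKM, the highest of the 6 mice, and the 10 surface colonocyte genes to 8788 FPKM, also the highest. What part these played in the peptidase values was not tested.

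**Figure D3:**
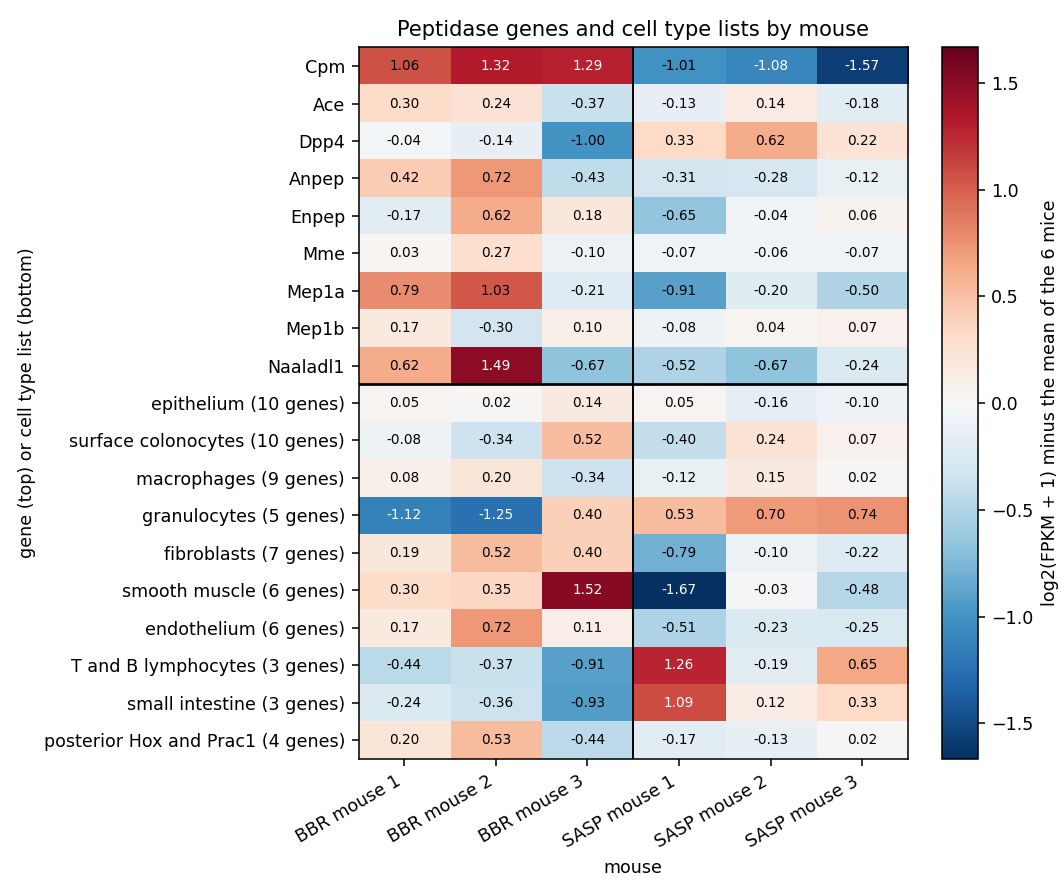
Level in each mouse as log2(FPKM + 1) minus the mean of the 6 mice for the 9 peptidase genes (top) and for the mean of each cell type list with at least 3 tested genes (bottom), with red above and blue below the mean. Cpm is red in all BBR mice (1.06 to 1.32) and blue in all SASP mice (-1.57 to -1.01), whereas Ace, Dpp4, Anpep, Mep1a and Naaladl1 are blue in BBR mouse 3 and the epithelium list stays between -0.16 and 0.14.

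Levels of cell type markers are given beside these values because the samples were pieces of tissue, in which fewer cells of a type and less RNA per cell cannot be told apart. Epithelial genes were nearly level between groups, with a median log2 fold change of 0.04 over 10 genes and 1 of them called, Krt18, which was higher under BBR. Centring every mouse on the epithelial list moved Cpm from 2.44 to 2.30. Surface colonocyte genes had a median of 0.11 with none of 10 called, and sums of 4791 to 8788 FPKM under BBR against 4763 to 6154 FPKM under SASP. Their log2 fold changes ran from -2.30 (Clca4a) to 2.48 (Car1). Macrophage genes had a median of -0.14 with none of 9 called.

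Summed levels of the smooth muscle, fibroblast and endothelial lists were higher under BBR. Smooth muscle genes summed to between 2730 and 6490 FPKM in the BBR mice and between 689 and 2173 FPKM in the SASP mice, with a median log2 fold change of 1.46 and none of 6 called. Fibroblast genes summed to between 182 and 257 against between 82.3 and 149 FPKM, with a median of 0.80 and 3 of 7 higher (Thy1, Lum and Col1a1), where 3.82% of all tested genes were higher. The fibroblast calls fell to 0 without BBR mouse 1, BBR mouse 2, SASP mouse 1 or SASP mouse 3, with no filter and after centring on the epithelial genes. Endothelial genes summed to between 16.1 and 30.4 against between 8.06 and 11.2 FPKM, with a median of 0.64 and Emcn called higher among 6, a call that was lost in those same fits. No gene of these 3 lists was at 0 in all mice. In each list the sums of the BBR mice lay above those of the SASP mice. Cpm did the same, as did 21.3% of all tested genes taken singly. The part of these cells in the Cpm difference was not tested.

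Lists of blood and neighbouring tissues were thinner. Granulocyte genes summed to between 192 and 567 FPKM under BBR and between 357 and 536 FPKM under SASP. Nearly all of this was Ly6g, at 189.99 to 552.02 FPKM under BBR and 328.8 to 505.26 FPKM under SASP, so the sum is not a granulocyte level. The median log2 fold change was -0.51, and S100a8 was called lower among 5 tested genes. S100a8 was at 0, 0 and 6.19 FPKM under BBR and at 18.53, 20.64 and 23.14 FPKM under SASP. Of 9 lymphocyte genes 3 could be tested and Cd79b was lower. Of the 8 exocrine pancreas genes only Cela1 could be tested. It was higher under BBR, with 130 to 140 FPKM under SASP and 172 to 261 FPKM under BBR. Amy2a5 was at 2.65 FPKM in BBR mouse 1 and at 0 in the others. Cela2a, Cpa1, Cpb1, Pnlip, Prss2 and Ctrb1 were under 1 FPKM in every mouse, so no level of pancreas is read from Cela1. Of 7 small intestinal genes with values, 3 were tested and Apob was lower. None of the 4 posterior Hox genes was called, with a median of 0.24. Of the calls in these lists, those of S100a8, Cd79b and Cela1 were absent in 5 of the 6 fits without 1 mouse. They were present only without BBR mouse 3. The call of Apob was lost without SASP mouse 1 or SASP mouse 3. Cd79b was under 1 FPKM in every BBR mouse and met the filter only through the SASP mice, so nothing is read from its call. The genes named from the cell type lists were chosen after their values were seen.

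Further peptidases were read from the same fit. Cpm was chosen with this contrast known, so no conclusion is drawn from setting it against these lists. Lists of 73 further peptidase genes held 69 that were in the table and 46 that could be tested, of which 1 was higher, 4 were lower and 41 did not pass, with a median log2 fold change of 0.05. This is 5 of 46 beside 8.86% of all tested genes. Among the other membrane peptidases, 15 were tested, 1 was higher and 1 was lower, and the median was -0.14. Ece1, the endothelin-converting enzyme, was at 34.73, 36.50 and 29.09 FPKM under BBR and at 16.17, 20.78 and 18.67 FPKM under SASP. All BBR mice were above all SASP mice, as in 21.3% of tested genes. Ece1 rose by 0.82 on the log2 scale (standard error 0.14, limma adjusted p = 0.0205). Its adjusted p was 0.0733 without BBR mouse 1, 0.0596 without BBR mouse 2, 0.0974 without SASP mouse 1 and 0.0973 without SASP mouse 3, and 0.0692 after centring on the epithelial genes.

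Tmprss4, a transmembrane serine protease, was at 124.36, 108.75 and 136.90 FPKM under BBR and at 200.07, 168.66 and 196.74 FPKM under SASP, and fell by 0.61 on the log2 scale (limma adjusted p = 0.0367). It passed without BBR mouse 3 (adjusted p = 0.00847) and missed the threshold without any of the other 5 mice in turn, up to 0.151 without SASP mouse 1. Tmprss2, another such protease, was at 310.15 to 389.24 FPKM under BBR and at 233.26 to 265.75 FPKM under SASP, with a log2 fold change of 0.50 that did not pass (limma adjusted p = 0.0577). It passed without BBR mouse 3 (adjusted p = 0.0280).

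The metallocarboxypeptidases are the family to which Cpm belongs. Of 21 listed genes the data held 19, of which 7 could be tested, none passed, and the median log2 fold change was 0.33. The 3 with the smallest p were Aebp1 (0.63, limma adjusted p = 0.310), Cpxm2 (0.44, adjusted p = 0.313) and Agtpbp1 (0.38, adjusted p = 0.329). Their groups overlapped, and their standard errors of 0.40, 0.28 and 0.25 were wider than the 0.17 of Cpm. Over the fits without 1 mouse the list had between 0 and 1 genes past the threshold.

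Intracellular peptide hydrolases finish the digestion of the short peptides that enterocytes take up, and some of them trim peptides for antigen presentation. All 24 listed genes were tested, 0 were higher, 3 were lower and 21 did not pass, with a median of 0.02. Lap3, the cytosolic leucine aminopeptidase, was at 30.33, 27.15 and 29.91 FPKM under BBR and at 140.18, 102.73 and 147.47 FPKM under SASP. The lowest SASP mouse was far above the highest BBR mouse. Lap3 fell by 2.11 on the log2 scale (standard error 0.15, limma adjusted p = 0.00171) and passed in all 12 alternatives, with adjusted p between 9.35e-05 and 0.0174.

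Erap1, which trims peptides in the endoplasmic reticulum for MHC class I, was at 21.81, 20.98 and 15.25 FPKM under BBR and at 38.52, 32.75 and 39.11 FPKM under SASP (log2 fold change -0.91, limma adjusted p = 0.0234). It missed the threshold without BBR mouse 1 (0.0624), BBR mouse 2 (0.0501), SASP mouse 1 (0.114) or SASP mouse 3 (0.107). Rnpep, aminopeptidase B, was at 35.72, 42.46 and 33.30 FPKM under BBR and at 60.75, 53.07 and 52.05 FPKM under SASP (log2 fold change -0.56, limma adjusted p = 0.0407). Rnpep missed it without BBR mouse 1 (0.107), SASP mouse 1 (0.164), SASP mouse 2 (0.0876) or SASP mouse 3 (0.129).

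**Figure D4:**
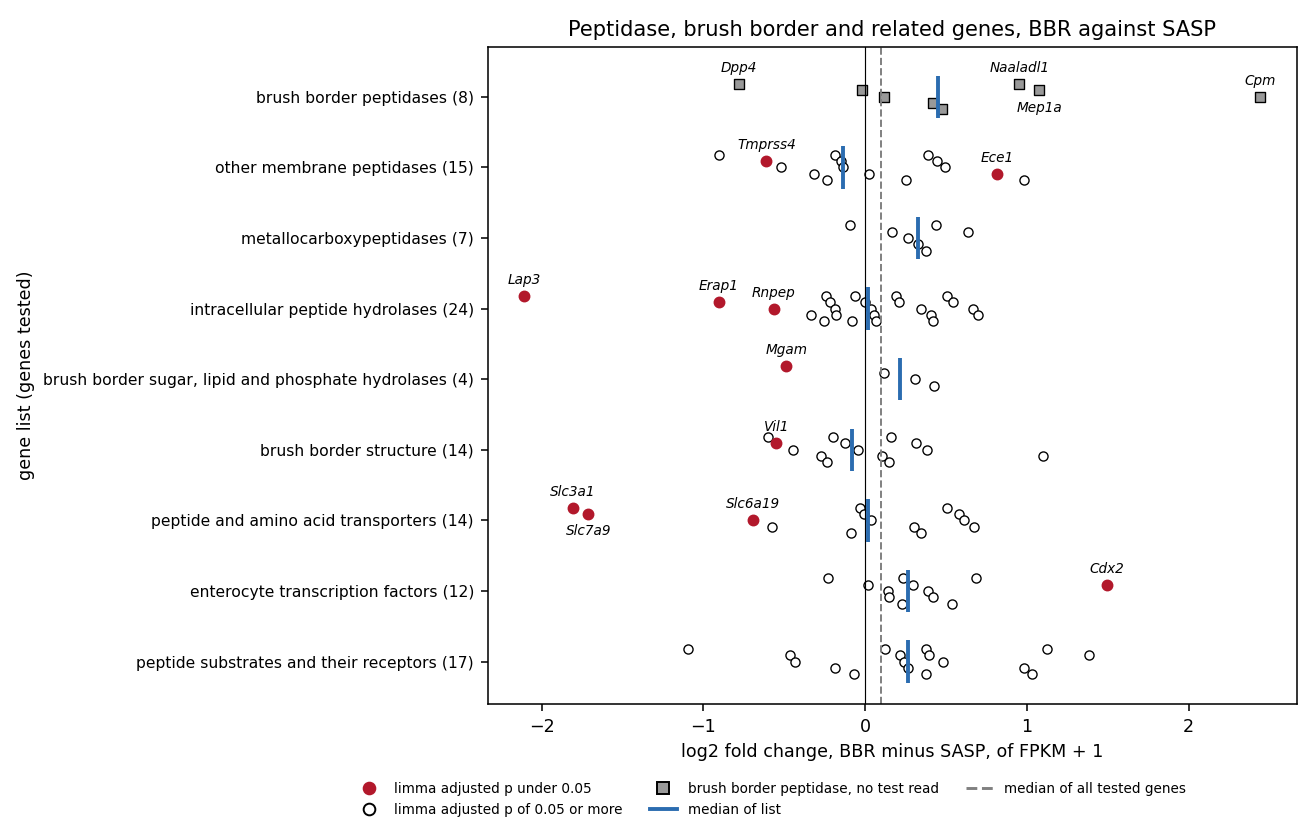
Log2 fold change of FPKM + 1 between BBR and SASP for each tested gene of the peptidase, brush border and related lists, with list medians (blue) and the median of all tested genes (dashed, 0.10); red points passed limma at an adjusted p under 0.05 and grey squares are the peptidase genes for which no test is read. Cpm, chosen with this contrast known, is at 2.44. The 7 tested metallocarboxypeptidases run from -0.10 (Agbl3) to 0.63 (Aebp1), and Lap3 at -2.11 is the lowest point.

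Other components of the brush border gave few calls, and no direction is read from them. Over all tested genes, 3.82% were higher and 5.04% were lower under BBR. Of the hydrolases of sugar, lipid and phosphate, 4 of 11 listed genes were tested with a median log2 fold change of 0.21, and 1 was lower. This was Mgam (maltase-glucoamylase), at 22.50 to 26.12 FPKM under BBR and at 31.63 to 36.94 FPKM under SASP (log2 fold change -0.49, limma adjusted p = 0.0443). Enpp3, an ectonucleotide hydrolase (0.43, adjusted p = 0.145), and Asah2, a neutral ceramidase (0.31, adjusted p = 0.201), did not pass. Mgam passed only without BBR mouse 3 among the fits that left out 1 mouse, and reached 0.175 without SASP mouse 1.

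Of 14 genes for the structure of microvilli, all tested, 1 was lower and the median was -0.08. It was Vil1 (villin, an actin bundler), at 265.67, 247.41 and 252.08 FPKM under BBR and at 402.09, 348.60 and 371.24 FPKM under SASP (log2 fold change -0.55, standard error 0.11, limma adjusted p = 0.0327). Vil1 passed without BBR mouse 3 (0.0111) and missed the threshold without each of the other 5 mice, up to 0.139 without SASP mouse 1. The microvillar myosins Myo7b (0.38, adjusted p = 0.101) and Myo1a (-0.45, adjusted p = 0.112) did not pass.

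Amino acid and peptide transporters take up the products of these peptidases. Of 15 listed, 14 were tested, 0 were higher, 3 were lower and the median was 0.02, beside 5.04% of all tested genes that were lower. The count was 0 without BBR mouse 1 or SASP mouse 3, 1 without BBR mouse 2, SASP mouse 1 or SASP mouse 2, and 8 without BBR mouse 3. Slc7a9, the light subunit of the carrier for cystine and basic amino acids, was at 13.88, 18.56 and 14.59 FPKM under BBR and at 72.59, 40.91 and 50.61 FPKM under SASP. The groups were far apart, and Slc7a9 fell by 1.71 on the log2 scale (standard error 0.22, limma adjusted p = 0.0109), with 0.0529 without BBR mouse 1 and 0.0626 without SASP mouse 3. Slc3a1, the heavy subunit of the same carrier, was at 0.70, 1.15 and 3.07 FPKM under BBR and at 4.92, 12.19 and 7.17 FPKM under SASP (log2 fold change -1.81, limma adjusted p = 0.0407). It passed without BBR mouse 3 (0.00719) and missed the threshold without each other mouse, up to 0.130 without SASP mouse 3. Slc6a19, the neutral amino acid transporter, was at 0.26 to 0.35 FPKM under BBR and at 1.02 to 1.27 FPKM under SASP (log2 fold change -0.69, limma adjusted p = 0.0286), and missed the threshold when BBR mouse 1 (0.0883) or BBR mouse 2 (0.0830) was left out. Every BBR mouse was under 1 FPKM, so Slc6a19 met the filter only through the SASP mice. Nothing is read from its call, which is among the 3 lower. Slc6a19 reached the filter in 8 of the 12 alternatives, and in none that left out a SASP mouse.

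Of the transcription factors of enterocytes, 12 of 14 were tested, 1 was higher and the median was 0.27. Cdx2, the intestinal homeobox factor, was at 22.85, 11.85 and 19.00 FPKM under BBR and at 4.69, 9.13 and 3.74 FPKM under SASP. All BBR mice were above all SASP mice, as in 21.3% of tested genes. The log2 fold change was 1.50 (standard error 0.33, limma adjusted p = 0.0422). Cdx2 missed the threshold without BBR mouse 1 (0.105), BBR mouse 2 (0.0520), SASP mouse 1 (0.163) or SASP mouse 3 (0.140). Maf, a bZIP factor, had a log2 fold change of 0.53 that did not pass (limma adjusted p = 0.0533), and it passed without BBR mouse 3 (0.0351).

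Genes for peptides that these enzymes cut, and for the receptors of those peptides, gave no call. Of 26 listed, 17 were tested, and the median log2 fold change was 0.26. Edn2 (endothelin 2) was at 8.15, 5.36 and 3.89 FPKM under BBR and at 1.21, 2.17 and 2.93 FPKM under SASP, with a log2 fold change of 1.12 (limma adjusted p = 0.0590), and it passed without BBR mouse 3 (0.0167). Edn1 (0.98, adjusted p = 0.106) passed without BBR mouse 2 (0.0211), and Agtr1a, an angiotensin II receptor (0.48, adjusted p = 0.131), passed in no fit.

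The genes whose level followed Cpm most closely over the 6 mice were no peptidases. By Pearson r of log2(FPKM + 1) they were Rras2, a Ras-related GTPase (0.997), Tfpi, the tissue factor pathway inhibitor (0.994), Kif1b, a kinesin (0.992), Zc3h11a, an mRNA export factor (0.992), and Arhgef3, a guanine nucleotide exchange factor (0.991). Rras2 was at 26.84, 27.85 and 27.10 FPKM under BBR and at 17.39, 17.33 and 16.51 FPKM under SASP. The 6 mice form 2 clusters, the treatment groups, and that step between groups sets most of r, so r is a description and carries no p. An r above 0.95 was shared by 119 of the tested genes (0.986%). Among the members r with Cpm was 0.753 for Mep1a, 0.570 for Naaladl1, 0.528 for Anpep, 0.521 for Enpep, 0.238 for Ace, -0.145 for Mep1b and -0.758 for Dpp4.

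The step between groups was smaller in these genes than in Cpm. It was 0.64 for Rras2 (standard error 0.09, limma adjusted p = 0.0139) and 0.84 for Tfpi (standard error 0.12, limma adjusted p = 0.0141), and it did not pass for Kif1b (0.32, adjusted p = 0.0746), Zc3h11a (0.23, adjusted p = 0.114) and Arhgef3 (0.36, adjusted p = 0.0701). These genes were picked for their likeness to a gene that differed between the groups, so their tests do not stand apart from that choice. Rras2 missed the threshold without BBR mouse 1 (0.0635), SASP mouse 1 (0.0750) or SASP mouse 3 (0.0921) and after centring on the epithelial genes (0.0694). Tfpi missed it without the same 3 mice (0.0624, 0.0746 and 0.0907).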

How the data were processed

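RNA was sequenced from colorectal tissue (labels; the methods also speak of rectal and colon samples) of 6 mice, grouped by the treatment label. Replicate numbers followed accession order and only name a mouse. The authors deposited FPKM per gene and mouse, rounded to 2 decimals. The submitters' processing notes name Bowtie2 2.2.5, RSEM 1.2.12 and the build mm9, and the methods name SOAPnuke for read filtering. The annotation is not given in the sources used here. The labels name an Illumina kit and the methods ribosomal RNA depletion with DNA nanoball sequencing, which the values do not settle. RSEM shares reads that fit several genes between them, so close paralogs can trade signal.

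FPKM are not counts, so limma 3.58.1 in R 4.3.3 was fitted to log2(FPKM + 1) with a variance trend, for genes with at least 1 FPKM in at least 3 mice, with Benjamini-Hochberg adjustment over all 12072. A fold change on this scale understates the change of low genes. Depth per mouse was very roughly 14400000 to 18000000 reads. It was judged from 30 to 48 genes per mouse that were seen in that mouse only. Their transcripts were under 1500 bases, and each gene was taken as a single read. The labels do not say whether mice of a group shared a cage or were handled together, so p-values measure the spread between these samples, which may be partly technical. Exact permutation of 3 against 3 mice cannot go below a two-sided p of 0.10 and was not used.

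The members, the 8 pathway lists and the 11 cell type lists were chosen with earlier results of these data known. Named genes were the 9 members, the 5 tested genes with the highest r with Cpm, and up to 3 genes of smallest p from each pathway list. A gene that this rule names is not reported here. The fit was tested on simulated data. Of 100 genes given a log2 change of 1, 57 passed the threshold, and of 100 given a change of 2, 93 passed. A gene that did not pass may therefore still differ. Alternatives were a pseudocount of 0.1, no filter, a mean FPKM of at least 5, median-ratio scaling, centring on the epithelial genes, no variance trend, and leaving out each mouse.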

Additional observations from a re-analysis of the deposited data

How the results depend on the processing

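Over the 12 alternatives the log2 fold change of Cpm lay between 2.27 and 2.63. The count of all genes past the threshold, 1069, became 608 without the filter and 1697 under median-ratio scaling, and ranged from 51 (without SASP mouse 3) to 4018 (without BBR mouse 3). The count for the peptidase members, 1, became 2 under median-ratio scaling (Cpm and Dpp4), where 14.1% of all tested genes passed, and ranged from 1 to 5 with 1 mouse left out, the 5 being without BBR mouse 3, where 33.8% passed. Nothing is read from the members' counts, since this contrast chose them. For the other peptidases, 5 became 1 to 17 with 1 mouse left out. For the pathway and cell type lists, 15 of 125 became 4 without the filter and 0 (without SASP mouse 3) to 52 (without BBR mouse 3) with 1 mouse left out. Centring on the epithelial genes moved the median of all tested genes by -0.14 and the share of calls that were higher under BBR from 43.1% to 10.9%. Of members that did not pass, Ace changed sign to -0.02 under that centring and to -0.01 without BBR mouse 1, and Mep1b to 0.12 without BBR mouse 2 and to 0.01 without SASP mouse 3. Of 13 other named genes past the threshold, 1 (Lap3) passed in every fit without 1 mouse and 12 missed it in at least 1. Over 29 such named genes and 335 comparisons, 268 kept their side of the threshold, 56 lost it, 11 gained it and none changed direction. The cause of these shifts was not tested. No paired analysis was possible because the replicate numbers were given in accession order and pair no mice across the groups. By the rough depth estimate Mme rests on 1.33 to 41.1 reads per mouse, Anpep on 69.5 to 230 and Enpep on 71.0 to 269. Mme was left out by the filter, and no difference is stated for it.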
